A study of Mus musculus with 40 samples.

Results

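The SoxF family comprises Sox7, Sox17 and Sox18, and its loci were read here from a reporter screen in which open-chromatin fragments had been tested for enhancer activity during blood cell specification. A fragment was assigned to a locus when its centre lay in the mm10 RefSeq gene body of one of these genes or within 25 kb of it, and overlapping fragments were merged into regions. This gave 340 of the 458486 fragments listed over 40 libraries (0.0742%), which were 260 of 354627 different fragments, in 12 of 75060 regions. Sox7 (chr14:63943706-63950732, plus strand) held 70 listed fragments in 3 regions, Sox17 (chr1:4490928-4497426, minus strand) 38 in 2 regions and Sox18 (chr2:181669837-181671640, minus strand) 232 in 7 regions. Assignment was by position alone, and the gene that a fragment regulates was not measured. No other protein-coding gene overlapped the Sox17 window, whereas the Sox7 window reached into Pinx1 and 4930578I06Rik and the Sox18 window into Prpf6, Gm29797, Tcea2 and Rgs19.

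All libraries came from HM-1 mouse embryonic stem cells of the 129/ola strain, in which the non-functional Hprt locus is repaired when the reporter integrates there. Tn5-cut open-chromatin fragments of 5 stages had been cloned in front of the Hsp68 minimal promoter and Venus-YFP, the plasmid libraries had been mixed, and a cell carried a single fragment. The stages were embryonic stem cells (ES), FLK1+ hemangioblast-like cells (HB), hemogenic endothelium 1 (HE1; KIT+ TIE2+ CD41-), hemogenic endothelium 2 (HE2; KIT+ TIE2+ CD41+) and hematopoietic progenitors (HP; KIT+ TIE2- CD41+), all derived from that line and grown without any other treatment being labelled. Each stage was sorted by YFP into Negative, Low, Medium and High gates in 2 replicates, giving 20 groups of 2 libraries. A stage of a replicate is called a sort, fragments of its Low, Medium or High gate are called positive, and those of its Negative gate negative. The Negative gate had been set with cells that carried the minimal promoter alone, so a negative fragment is one found in cells no brighter than these, and the same fragment can be found in both.

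SoxF proteins are transcription factors with an HMG-box DNA-binding domain that act in endothelial cells and at the step where hemogenic endothelium gives rise to blood. Sox7 is active early, in mesoderm and hemogenic endothelium. Sox17 is needed for definitive endoderm, arterial identity and hemogenic endothelium. Sox18 acts in blood vessels and, through Prox1, in lymphatic vessels. SoxF genes are themselves controlled by distal enhancers that endothelial factors of the ETS family commonly bind.

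Libraries differed widely in depth, from 654 to 51146 fragments, and replicate 1 was the deeper in most groups. Replicate 1 carried nearly all of the SoxF fragments, with 66 of 70 at Sox7, 31 of 36 at Sox17 and 216 of 225 at Sox18 when a fragment was counted once per sort and class. Per 100000 positive fragments of replicates 1 and 2, positive ones numbered 17.7 and 4.64 at Sox7, 6.505 and 1.55 at Sox17, and 61.1 and 9.27 at Sox18. Negative density was also lower in replicate 2 at Sox7 and Sox18, but was 16.9 and 15.2 at Sox17. These values are scaled to list length, and the cause of the remaining gap was not tested. The HE1 Negative and HE1 Medium libraries of replicate 1 had 34 SoxF fragments in common, of 51 in the former and 61 in the latter. The odds ratios of positive over negative fragments are therefore given with and without that sort. How far the HE1 Negative and HE1 Medium libraries overlap over all fragments is not reported here. Their overlap is thus not shown to be particular to SoxF loci. Replicates shared the cell line and the cloning scheme, and the p-values of these odds ratios rest on counts of fragments within sorts, not on the spread between separate cultures.

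The sequences below are the reference bases around the deepest point of Sox18 region 1, which held the most fragments of any SoxF region, and of 3 further intergenic regions, Sox7 region 2, Sox18 region 2 and Sox18 region 4, each of which had fragments in both replicates. Capitals mark matches to a fixed set of motif letters, read on both strands. SOX stands for ACAAAGG with ACAATGG as its other form, ETS for AGGAAG, the letters of GATA factors for AGATAAG, and RUNX for TGTGGTT with TGTGGTC as its other form. TEAD stands for GGAATGT with GGAATGC as its other form, AP-1 for TGACTCA with TGAGTCA as its other form, E-box for CAGCTG, and RBPJ for TGGGAA.
Sox7 region 2, chr14:63962816-63963115, plus strand: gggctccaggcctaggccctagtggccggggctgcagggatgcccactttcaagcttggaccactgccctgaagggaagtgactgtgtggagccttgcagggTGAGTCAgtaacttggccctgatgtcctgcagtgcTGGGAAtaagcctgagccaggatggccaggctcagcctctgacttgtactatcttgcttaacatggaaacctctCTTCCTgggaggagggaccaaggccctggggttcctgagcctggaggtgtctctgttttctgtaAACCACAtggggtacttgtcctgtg
Sox18 region 1, chr2:181659691-181659990, plus strand: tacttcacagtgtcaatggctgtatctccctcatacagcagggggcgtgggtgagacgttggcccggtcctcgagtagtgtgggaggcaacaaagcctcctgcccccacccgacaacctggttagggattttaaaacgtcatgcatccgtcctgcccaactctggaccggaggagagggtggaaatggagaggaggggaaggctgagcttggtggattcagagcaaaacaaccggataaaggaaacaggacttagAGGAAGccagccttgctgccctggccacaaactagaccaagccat
Sox18 region 2, chr2:181663312-181663611, plus strand: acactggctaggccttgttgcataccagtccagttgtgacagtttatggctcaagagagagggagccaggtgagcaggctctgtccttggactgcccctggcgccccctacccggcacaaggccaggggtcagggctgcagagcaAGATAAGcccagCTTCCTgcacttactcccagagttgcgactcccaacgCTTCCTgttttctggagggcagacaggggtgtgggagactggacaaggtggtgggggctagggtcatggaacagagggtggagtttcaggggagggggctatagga
Sox18 region 4, chr2:181675511-181675810, plus strand: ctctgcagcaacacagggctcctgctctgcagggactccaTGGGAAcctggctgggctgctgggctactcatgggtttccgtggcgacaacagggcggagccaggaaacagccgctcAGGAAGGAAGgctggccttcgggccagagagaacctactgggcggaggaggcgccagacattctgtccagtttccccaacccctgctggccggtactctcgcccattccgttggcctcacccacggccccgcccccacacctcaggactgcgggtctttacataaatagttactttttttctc

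ETS letters were the motif most often found. In windows of 300 bases centred on the deepest point, 9 of the 12 SoxF regions held an ETS match, against 42.7% of 75041 regions of the series treated the same way. Sox7 region 1 had 3 ETS matches, the most of these windows. Sox18 regions 2, 4 and 6 had 2 each, and in Sox18 region 4 the pair overlapped. RBPJ letters, those of the Notch effector, were in 4 of 12 windows against 28.4% of all. GATA letters were in 2 of 12 against 5.96%, and 1 of these stood close to an ETS match in Sox18 region 2. SOX letters occurred in the windows of Sox17 region 1 and Sox18 region 3 only, 2 of 12 against 12.5%. RUNX and AP-1 letters were each found in Sox7 region 2 alone (13.0% and 10.1% of all), and TEAD (9.77%) and E-box letters (19.9%) in no SoxF window. Motifs of different kinds did not overlap in the printed sequences. These windows were rich in GC, with a median of 58.5% against 49.3% over all regions. The matches are a description of letters, and no factor was measured at them.

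No SoxF fragment had its centre within 1500 bp of an annotated start site, so the promoters of these genes were not read. Over the series, 7930 of the 8014 loci kept at least 20 fragments when those near start sites were left out. That count does not give the share of all fragments that lay near a start site. The methods describe a split into promoter and distal fragments at this distance, and whether the lists hold the distal ones only is not stated.

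At Sox7 all fragments lay downstream of the gene, in intergenic DNA. Region 1 (chr14:63957541-63958427, 887 bp) was centred 14278 bp from the Sox7 start and held 57 of the 70 fragments, 46 of them different. Regions 2 (chr14:63962556-63963077) and 3 (chr14:63966022-63966156) were centred 19110 and 22383 bp from the start and held 11 and 2. The fragments of this locus were short, with a median of 121 bp against 180 bp over all different fragments of the series.

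Positive fragments of Sox7 region 1 numbered 7, 15, 12 and 9 from HB to HP in replicate 1, and 1 at HB in replicate 2. Its negative fragments numbered 2 at HB, 10 at HE1 and 1 at HP, all in replicate 1, and no ES library of either replicate held any fragment of the locus. In replicate 1 the region was thus found in positive gates at every stage after ES, and at HE2 no negative one stood beside its 12 positive fragments, although 0 of 8430 negative fragments allowed up to 35.6 per 100000. A fragment of 186 bp in this region (chr14:63958068-63958253) was in HB Low, HE1 Medium, HE2 Medium and HP Low of replicate 1 and in no Negative library. It was the SoxF fragment found in positive gates at the most stages, 4 of 5.

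Region 2 of Sox7 was seen in HE1 of replicate 1, with 6 positive and 4 negative fragments, and once in HB High of replicate 2. All 4 of its negative fragments were also in HE1 Medium. Region 3 came from replicate 2 alone, with a fragment in HB High and another in HP Negative.

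Over the locus, the density of positive Sox7 fragments per 100000 positive fragments was 18.0, 20.6, 17.5 and 22.7 from HB to HP in replicate 1, and 24.6 at HB in replicate 2. The other 5 sorts held no positive one. Among them, ES of replicate 1 allowed up to 10.8 per 100000 (3 counts of 27717), below the 4 later values of that replicate. The limits in replicate 2 ran from 8.62 to 86.4. The lowest was that of HE1, below the 20.6 of HE1 in replicate 1, a difference that was not tested. The HE1 positive lists also differed in their mix of gates. The Low gate gave 31915 of 34809 fragments in replicate 2 and 15458 of 101943 in replicate 1. By stage the means were 21.3 ± 4.67 (SD, n = 2) at HB, 11.3 ± 16.0 at HP, 10.3 ± 14.6 at HE1, 8.77 ± 12.4 at HE2 and 0 at ES, and neighbours in this order differed by less than the spread of at least 1 of them.

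Sox17 was the locus with fewest fragments and the most even split between gates. Its region 2 (chr1:4492655-4493778, 1124 bp) lay inside the gene, 4210 bp from the start, across an exon with the beginning of the coding sequence in curated transcripts and into the introns on both sides, and held 36 of the 38 fragments. Region 1 (chr1:4491738-4491997) was in the last, coding exon and held 2 fragments, both from HP Negative of replicate 2.

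In region 2 the positive fragments numbered 6 at HB and 12 at HE1 of replicate 1 and 1 at ES of replicate 2. Negative fragments numbered 4 at ES, 1 at HB and 8 at HE1 of replicate 1, and 1 each at HB and HP of replicate 2. ES of replicate 1 was the only one of these sorts with several negative and no positive fragment, whereas HB of replicate 1 had 6 positive against 1 negative. By gate, the 6 HB fragments were 4 in Low and 2 in Medium, and HE1 of replicate 1 had 2 in Low, 6 in Medium and 6 in High, 2 of them counted in 2 of these libraries. Only 2 different fragments of Sox17 were in both positive and Negative gates, both of them in HE1 Negative and HE1 Medium of replicate 1.

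Fragments of the positive and Negative gates overlapped in Sox17 region 2, with different medians. The 17 fragments found only in positive gates had centres 3759 to 4243 bp from the gene start, with a median of 3953 bp, and the 13 found only in the Negative gate 3817 to 4729 bp, with a median of 4227 bp. The 4 ES negative fragments were centred 4227 to 4645 bp from the start, beyond every positive fragment of replicate 1. At HE1 of replicate 1 the fragments of both classes were interleaved, those of the Negative gate from 3817 to 4241 bp. This difference was noticed in the map of fragments and was not tested.

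**Figure D1:**
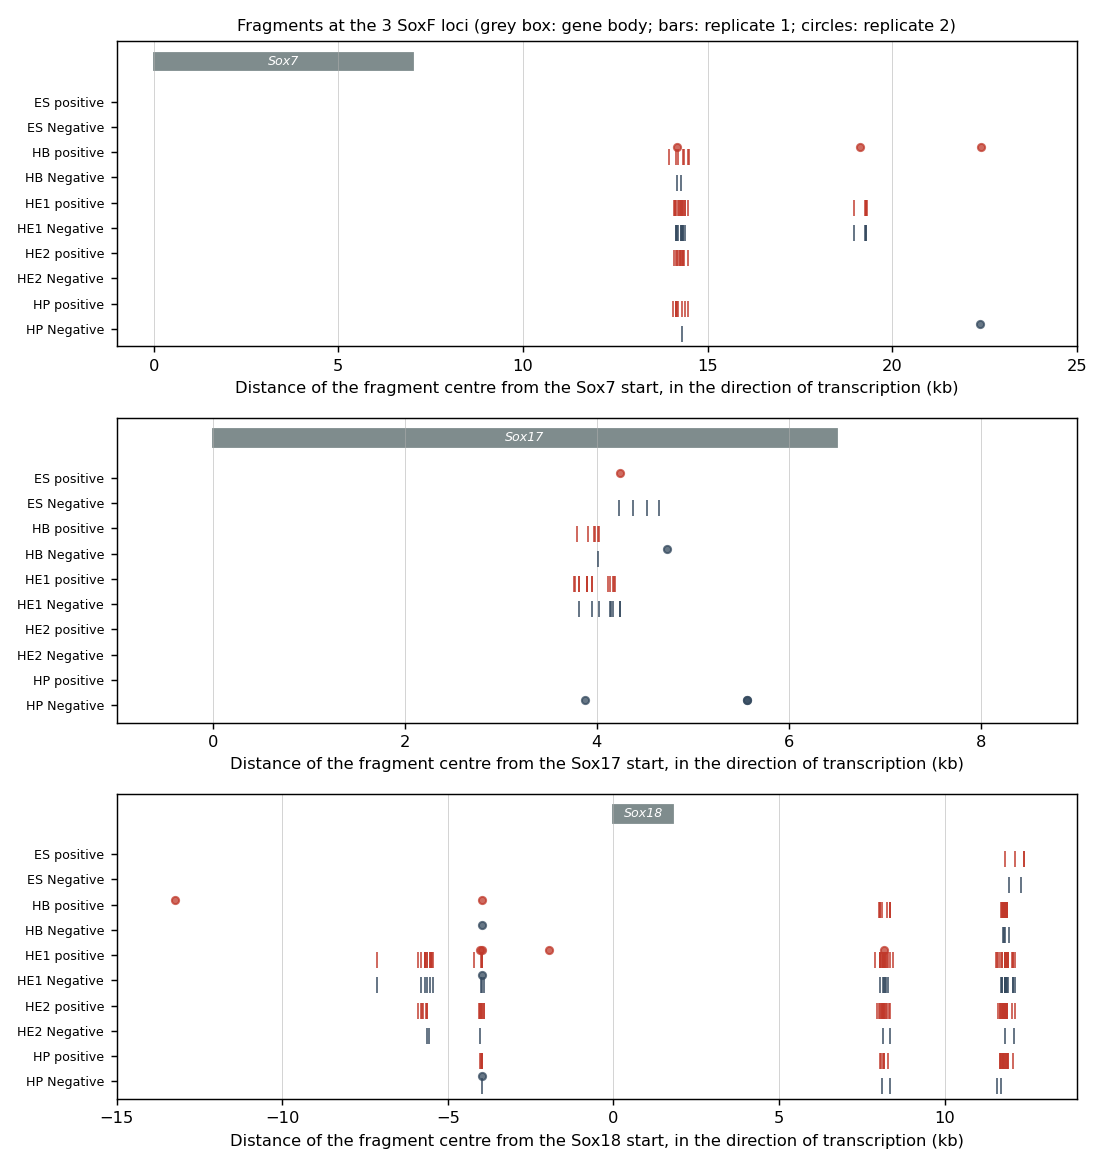
Each mark is a fragment in a library, placed by the distance of its centre from the start of Sox7, Sox17 or Sox18 in kb, in the direction of transcription, with a row for the positive (red) and the Negative (dark blue) gates of each stage. Bars are replicate 1, circles replicate 2 and grey boxes the gene bodies. The Sox7 fragments lie downstream of the gene, those of Sox17 inside it, and those of Sox18 on both sides.

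Positive density at Sox17 was 15.4 per 100000 at HB and 11.8 at HE1 of replicate 1 and 11.1 at ES of replicate 2, and 0 in the other 7 sorts. The HE2 sort of replicate 1, with 68427 positive fragments, allowed up to 4.38 per 100000 and its HP sort up to 7.56, both below the HB and HE1 values of that replicate. Neither sort held a negative Sox17 fragment, so these lists do not tell whether fragments of the locus were present there and inactive. In replicate 2 the limits at HE2 and HP, 86.4 and 57.6, were too wide to place the locus. HE1 of replicate 2, with 34809 positive fragments and none at Sox17, allowed up to 8.62. This was below the 11.8 of HE1 in replicate 1, a value from 12 fragments, and the difference was not tested. Most of the HE1 positive fragments of replicate 2 were from the Low gate (31915), unlike those of replicate 1 (15458 of 101943). The stage means were 7.70 ± 10.9 (SD, n = 2) at HB, 5.89 ± 8.32 at HE1 and 5.54 ± 7.84 at ES, each within the spread of the others, and 0 at HE2 and HP. Negative density was 38.6 at ES, 11.9 at HB and 19.3 at HE1 of replicate 1, and 32.7 at HB and 20.1 at HP of replicate 2.

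Sox18 was among the most densely covered loci of the series, with more fragments than 98.8% of the 21774 gene loci. For Sox7 this share was 86.4% and for Sox17 75.2%, against a median of 9 fragments per locus. Its regions lay on both sides of the gene. Regions 1 (chr2:181659145-181660288) and 2 (chr2:181663108-181663904) were centred 11924 and 8134 bp downstream of the Sox18 start and held 112 and 58 fragments. Region 1 touches the end of Gm29797, and 9 of its 85 different fragments had their centre in an exon of that gene. Upstream were region 4 (chr2:181675415-181675977), at -4056 bp from the start, and region 5 (chr2:181676981-181677686), at -5693 bp, with 29 fragments each. Regions 3, 6 and 7 held 1 or 2 fragments each, the last in an intron of Tcea2. For regions 1 and 2 the nearest annotated start was that of Gm29797, at 2834 and 6624 bp. For regions 5, 6 and 7 it was that of Tcea2, and only for regions 3 and 4 that of Sox18.

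Region 1 of Sox18 was found in every sort of replicate 1 and in none of replicate 2. In stage order from ES to HP it had 4, 15, 25, 24 and 17 positive fragments and 2, 4, 14, 2 and 2 negative ones. It was the only Sox18 region with fragments at ES.

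Region 2 had 7, 18, 14 and 6 positive fragments from HB to HP of replicate 1 and 1 at HE1 of replicate 2, against 0, 6, 2 and 2 negative ones in replicate 1. Region 5 was seen only at HE1, with 14 positive and 5 negative fragments, and at HE2, with 7 and 2, in replicate 1. At HB and HP of that replicate the limits for positive fragments were 7.70 and 7.56 per 100000. Of the 21 positive fragments of region 5, 10 were left without the HE1 Medium library of replicate 1. The positive list of a sort was longer than its Negative list in most sorts, so such counts were compared as shares of each list.

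Region 4 had several fragments in both replicates, as did Sox17 region 2. In replicate 1 it had 4 positive and 3 negative fragments at HE1, 8 and 1 at HE2 and 5 and 1 at HP, and in replicate 2 it had 1 and 1 at HB, 2 and 1 at HE1 and 0 and 1 at HP. A single fragment of 131 bp (chr2:181675560-181675690), which holds both overlapping ETS matches of the printed window, made up all but 1 of its listings in replicate 2. It was listed in 7 libraries, which were HE2 Medium and HP Negative of replicate 1 and HB Negative, HB Medium, HE1 Negative, HE1 Low and HP Negative of replicate 2. It was the only one of the 260 SoxF fragments found in both replicates (0.385%, against 0.957% of all different fragments), and it was in positive and Negative gates of both.

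**Figure D2:**
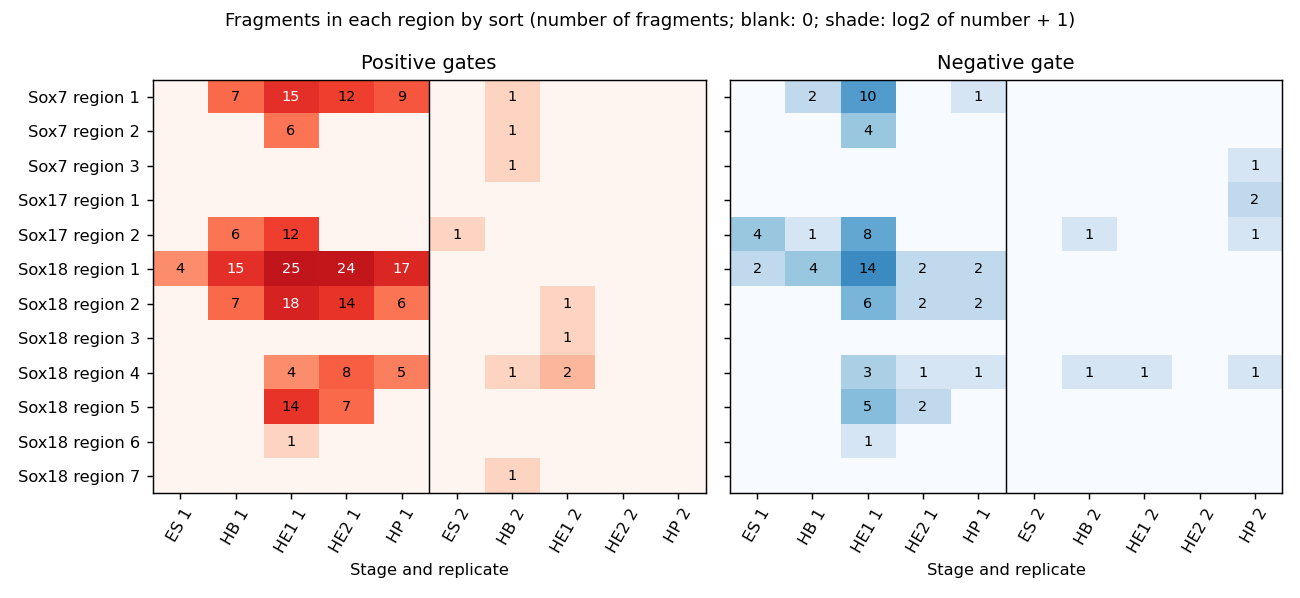
Numbers of fragments in the positive gates (left, red) and the Negative gate (right, blue) for each of the 12 SoxF regions (rows) and each sort (columns, stage and replicate), with the shade on a log2 scale. Replicate 1, left of the line in each panel, holds nearly all of them, and Sox18 region 1 is the only region filled in all 5 of its sorts.

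Positive density at Sox18 in replicate 1 was 14.4 per 100000 at ES and then 56.5, 60.8, 77.5 and 70.6 from HB to HP. Negative density was 19.3, 47.5, 70.1, 83.0 and 59.1 over the same stages, so both classes were lowest at ES. In replicate 2 positive density was 16.4 at HB, 11.5 at HE1 and 0 at ES, HE2 and HP, where the limits were 33.3, 86.4 and 57.6. Stage means were 38.7 ± 54.8 (SD, n = 2) at HE2, 36.4 ± 28.4 at HB, 36.2 ± 34.9 at HE1, 35.3 ± 49.9 at HP and 7.22 ± 10.2 at ES, with neighbours in this order closer than the spread of at least 1 of them.

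**Figure D3:**
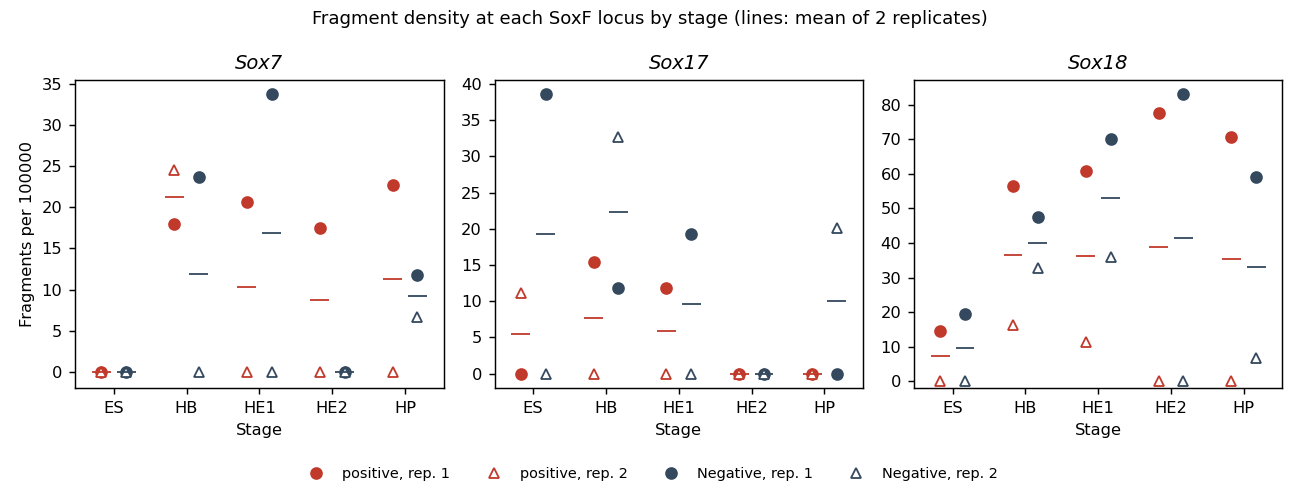
Fragments per 100000 (vertical axis, linear, a separate range for each locus) in the positive (red) and Negative (dark blue) gates at each stage, with filled circles for replicate 1, open triangles for replicate 2 and lines for the mean of both. Replicate 1 values of Sox18 are lowest at ES in both classes, and Sox17 has no positive value above 0 at HE2 or HP.

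The difference between stages was tested on log2 positive fragments per 100000 over the 10 sorts with limma. None of the loci was called, 0 of 8014 (0%) at a Benjamini-Hochberg adjusted p below 0.05, and 57 had an unadjusted p below it. Unadjusted limma p-values were 0.168 for Sox7, 0.918 for Sox17 and 0.608 for Sox18, each with an adjusted p of 0.9999. This model did not include the replicate. With the replicate as a block in limma they were 0.0726, 0.854 and 0.233, each with an adjusted p of 0.988. At this depth a change between stages was not detectable by this test. Fewer fragments of a locus in the pool at a stage and less activity of those fragments cannot be told apart from positive fragments alone. The methods of the study also describe a restriction to open chromatin of the matching stage, and whether it had been applied to these lists is not stated.

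Whether a SoxF locus took a larger or smaller share of positive than of negative fragments was tested with a Cochran-Mantel-Haenszel test over the 10 sorts. Across all loci with at least 20 fragments, 4 of 8014 (0.0499%) were called at an adjusted p below 0.05, 1 higher and 3 lower in positive gates, and no SoxF locus was among them. Sox17 had the lowest odds ratio of the family, 0.434 (95% interval 0.217 to 0.865), from 17 negative fragments and 19 positive ones (25.2 expected). Its unadjusted p was 0.0284 and its adjusted p was 1. An unadjusted p below 0.05 was reached by 3.41% of all loci, and 0.936% had a lower odds ratio than Sox17. For Sox7 the odds ratio was 0.852 (0.485 to 1.49; 52 positive and 18 negative fragments) and for Sox18 0.910 (0.659 to 1.26; 175 and 50), both with an adjusted p of 1. These intervals leave room for a change in either direction.

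The sort that weighed most was HE1 of replicate 1, and for Sox17 ES of that replicate weighed as well. Without the 4 negative ES fragments the odds ratio of Sox17 was 0.590 (0.277 to 1.25), and without HE1 of replicate 1, where the locus had too few fragments to be tested, it was 0.246. Without HE1 of replicate 1 that of Sox7 was 1.74 (0.558 to 5.42), on the other side of 1. For Sox18 it was 0.962 (0.598 to 1.55). Within replicate 1 the odds ratios were 0.821 for Sox7, 0.481 for Sox17 and 0.941 for Sox18, and within replicate 2, with 3 and 1, 1 and 4, and 6 and 3 positive and negative fragments, they were 2.32, 0.151 and 0.350 and could not be tested. When fragments found in both classes of a sort were left out, the Sox17 odds ratio was 0.249 (adjusted p = 0.199). Over all alternatives its adjusted p ran from 0.0537, in limma on the paired difference of positive and negative density, to 1.

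Among single regions 10 of 5530 (0.181%) were called, all lower in positive gates, and none of them was at a SoxF locus. The 6 SoxF regions with at least 20 fragments had odds ratios of 0.455 (Sox17 region 2; 0.227 to 0.913), 0.559 (Sox18 region 4; 0.233 to 1.34), 0.901 (Sox18 region 5), 0.905 (Sox7 region 1), 0.915 (Sox18 region 1) and 1.18 (Sox18 region 2; 0.591 to 2.37). Each had an adjusted p of 1. Sox17 region 2 was the only one with an unadjusted p below 0.05, at 0.0401, as were 3.45% of all regions. Without HE1 of replicate 1, an alternative chosen after seeing the data, the odds ratios were 1.76 (0.529 to 5.85) for Sox7 region 1 and 1.15, 1.14 and 0.569 for Sox18 regions 1, 2 and 4, each with an adjusted p of 1. Sox17 region 2, with 7 positive and 7 negative fragments left, was at 0.272 (0.0874 to 0.849), and Sox18 region 5, with 7 and 2, at 0.431 (0.0896 to 2.08), both under the minimum for the test. Without the HE1 Medium library alone, Sox18 region 5 was at 0.450 (0.154 to 1.32; 10 and 7 fragments, also under the minimum) and Sox17 region 2 at 0.467 (0.218 to 1.00), where its unadjusted p was 0.0696.

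**Figure D4:**
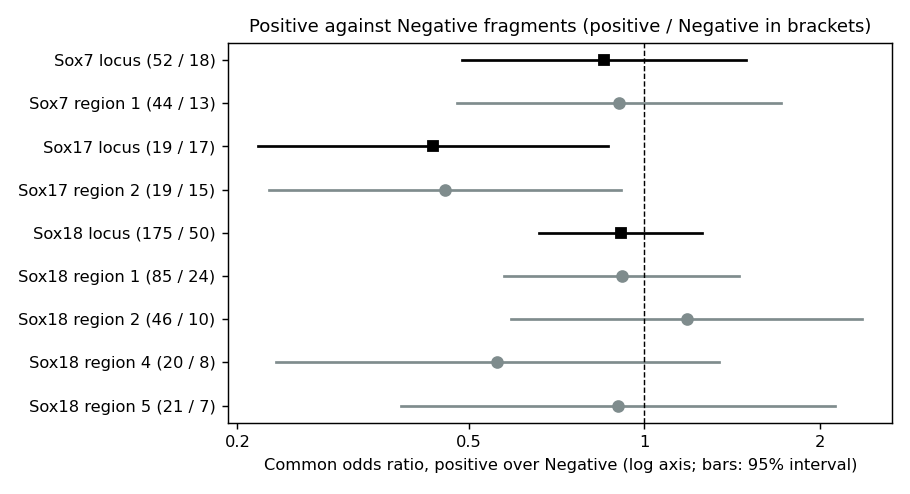
Common odds ratios of positive over negative fragments with 95% intervals on a log axis, for the 3 SoxF loci (black squares) and their 6 tested regions (grey circles), with the numbers of positive and negative fragments in brackets. The intervals of the Sox17 locus and of its region 2 lie below 1 and all others cross it, and no adjusted p was below 0.05.

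Reporter brightness was read from the High against the Low gate. Only 1 of 5142 loci (0.0194%) was called. The odds ratio was 0.810 (0.381 to 1.73) for Sox7, with 15 High fragments where 16.4 were expected, and 0.895 (0.580 to 1.38) for Sox18, with 51 against 53.2, both with an adjusted p of 1. Sox17 had 7 High fragments and 6 Low ones, too few to be tested. High fragments were spread over stages. At Sox18, replicate 1 held 2, 8, 14, 13 and 13 from ES to HP, and replicate 2 held 1 at HE1. Sox7 had 2, 3, 4 and 3 from HB to HP of replicate 1 and 3 at HB of replicate 2, whereas all 6 of Sox17 in replicate 1 were at HE1.

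Identical fragments were followed across gates and stages. Of the 260 different SoxF fragments, 179 (68.8%) were found only in positive gates, 40 (15.4%) only in the Negative gate and 41 (15.8%) in both, against 73.1%, 14.9% and 12.1% of all fragments of the series. The shares differed between the loci. At Sox17 44.1% were found only in the Negative gate, at Sox7 12.7% and at Sox18 10.5%. HE1 Negative and HE1 Medium of replicate 1 accounted for 34 of the 41 found in both, and 7 were found in both without that pair. At several stages were 25 fragments (9.62%; 10.4% of all), of which 22 were at Sox18 and none at Sox17. In positive gates of several stages were 18, and 11 of these were never in a Negative gate. For these counts, and for the 7 above, the share over all fragments of the series is not reported here. They are thus not shown to be particular to SoxF loci.

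The other genes of the SOX family and a list of endothelial and hemogenic genes linked to SoxF factors gave the setting for these values. Of 16 other SOX genes 8 had at least 20 fragments, and none was called in either direction, where 0.0499% of all loci were. Of the 8, 1 had an unadjusted p below 0.05, as did 3.41% of all loci. Sox8, with 33 positive and 2 negative fragments, had the highest odds ratio of them, 4.05 (1.01 to 16.3; adjusted p = 1), and Sox4, with 55 and 25, the lowest, 0.734 (0.440 to 1.22). Of 32 endothelial genes 23 were tested, and none was called or had an unadjusted p below 0.05, against the same 0.0499% and 3.41%. Their odds ratios ran from 0.516 (0.220 to 1.21) for Erg, an ETS factor of endothelium, to 1.73 (0.645 to 4.61) for Ephb4, a venous receptor. The median was 1.03, against 1.18 for the other SOX genes and 1.01 over all 8014 loci.

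Across the 10 sorts the loci most like each SoxF locus in log2 positive density were picked by Pearson's r. For Sox7 they were Ltbp3 (0.992), Lsg1 (0.986) and Trim66 (0.978), for Sox17 Smco2 (0.893), Dnah3 (0.874) and Hsf2bp (0.861), and for Sox18 Fstl1 (0.972), Tnfaip2 (0.965) and Brf2 (0.960). Between the SoxF loci r was 0.586 for Sox7 and Sox18, 0.229 for Sox7 and Sox17 and -0.344 for Sox17 and Sox18. These values are descriptions over 10 sorts that share libraries, depth and many counts of 0. Those of the picked loci were the highest of 8014, with loci of overlapping windows left out.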

How the data were processed

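Unique fragments were analysed from 40 libraries of the reporter screen. Per the methods, Trim Galore (adapter trimming), Bowtie2 (alignment to mm10) and SAMtools (proper pairs of high mapping quality) preceded the conversion of read pairs to fragments, with versions for these libraries not given in the sources used here. Filters against a background library and for open chromatin are described, without saying whether they shaped these files. The files deposited by the authors hold fragment coordinates in base pairs (66 to 599 bp) and no read counts, scores or molecular identifiers. Intervals, and the limit set by 3 counts where none was found, therefore cover counting error only.

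Genes, transcripts and sequence came from RefSeq on GRCm38, which is mm10. Depth of a sort was its number of positive or negative fragments. Loci and regions with at least 20 fragments were compared over 10 sorts by a continuity-corrected Cochran-Mantel-Haenszel test (SciPy 1.17.1), with a Mantel-Haenszel odds ratio, its 95% interval and Benjamini-Hochberg adjustment over all loci or regions tested. Stages were compared by an F test in limma 3.58.1 on log2 fragments per 100000, with a pseudocount of 0.5 fragments. Both were tested on simulated data: at the real depth the former found mainly losses and limma found none. The replicate numbers pair the sorts, since the stages of a replicate derive from 1 transfected pool per the methods, and the deviations of same-numbered sorts correlated over loci at 0.376 to 0.535. The members, gene lists, motifs and tests were chosen with earlier results of these data known. Named were the 3 genes, every region, the neighbouring genes, the 3 most similar loci of each, and the extremes of the gene lists. Alternatives were flanks of 10 and 50 kb, a minimum of 10 fragments, collapsing of fragments within 5 bp, other definitions of positive, other strata, limma, a pseudocount of 2, and leaving out sorts or replicates. Leaving out HE1 Medium of replicate 1, or all of its sort in the test per region, was added after seeing the data. Protein sequences were not used here, and the sequences of Sox7 region 1 and Sox17 region 2 are not reported here.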

Additional observations from a re-analysis of the deposited data

How the results depend on the processing

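No alternative brought an adjusted p of a SoxF locus below 0.05. The odds ratio of Sox17 stayed below 1 in the other settings run, between 0.151 and 0.590. For Sox7 21 of 23 alternatives and for Sox18 22 of 23 kept the direction. Some settings could not move the odds ratio of a locus, so these tallies overstate its stability. A minimum of 10 fragments changes only which other loci are tested, and some sorts left out held no fragment of the locus. With a flank of 50 kb the Sox18 odds ratio was 0.715 (0.539 to 0.950), an interval below 1. Its unadjusted Cochran-Mantel-Haenszel p was then 0.0264. The number of loci called, 4 of 8014 here, was 12 of 10914 with a flank of 50 kb. It was 0 of 7740 with near-identical fragments collapsed (168 at an unadjusted p below 0.05) and 11 of 7313 with fragments of both classes left out. With High alone as positive it was 2 of 5094, and with a minimum of 10 fragments 7 of 10636. Leaving out a replicate or sort gave 2 to 5, with the fewest loci tested without replicate 1 (2 of 1098). For regions, 10 of 5530 here, it was 0 of 5227 after collapsing (99 unadjusted) and 17 of 11754 with a minimum of 10. With a replicate or sort left out it ran from 5 of 5151, without replicate 2, to 14 of 124, without replicate 1. The latter is a much larger share of the regions tested. High against Low, 1 of 5142 here, gave 0 of 7064 with Low and Medium together (437 unadjusted) and 0 of 4874 after collapsing (192 unadjusted). It gave 0 of 4126 without replicate 2 and 5 of 379 without replicate 1. Without the replicate block 8 loci, 23 regions and 95 loci of the High against Low test were called, and the odds ratios were 1.00 for Sox18, 1.03 for its region 1, and 1.07 for Sox7 and 1.21 for Sox18 in High against Low. With the replicate block 0 loci differed between stages in limma (324 unadjusted), and no setting called any. Leaving out replicates, sorts or the HE1 Medium library of replicate 1 gave Sox7 0.692 to 2.32 and Sox18 0.35 to 0.962 in positive against negative, Sox7 region 1 0.75 to 1.76, Sox18 region 1 0.881 to 1.15, Sox18 in High against Low 0.856 to 7.53 (the higher value, without replicate 1, from 1 High and 3 Low fragments and untested), and for Sox17 a log2 difference of HB minus HE2 of -0.801 to 3.5. Where these changed sides of 1 or of 0, the cause was not tested. limma on the paired difference called 5 loci (1646 unadjusted). It gave Sox17 -1.96 on the log2 scale (SE 0.440, adjusted p = 0.0537), where the median over all loci was -0.479. A pseudocount was added to both classes, so a sort without any fragment of a locus was scored by the lengths of its lists alone. HE2 and HP of replicate 1 and HE1 and HE2 of replicate 2 held no Sox17 fragment of either class. The Sox17 value from limma therefore rests in part on list length.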
